A study of Mus musculus with 15 samples.

Results

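The genes described here are 41 genes of the DNA damage response and of DNA repair, listed by name and grouped into 9 pathways: damage signalling kinases, the MRN complex, homologous recombination, the Fanconi anaemia pathway, RecQ helicases, post-replication and mismatch repair, non-homologous end joining, single-strand break repair and nucleotide excision repair. They were listed by function, but with earlier results of these data known, and the list includes genes that the study names for a model. Of the 41, 36 had a probe set of their own and are measured here, among 14860 genes in all. Atr, Xrcc2, Fancd2 and Tdp1 had no probe set with their symbol, the only probe set of Lig3 was shared with Zfp830, and these 5 were not analysed here. Each of the 36 had 1 probe set.

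Expression was read on Affymetrix Mouse Exon 1.0 ST arrays, which carry probes along all exons of a gene, in Sca1+ mononuclear cells of the spleen from 5 groups of transgenic FVB/N mice, with 1 array per mouse and n = 3 arrays in each group. The MRP8NRASD12 founders (mice 8157, 8158 and 8159) carry mutant NRASD12 under the MRP8 promoter, which is active in myeloid cells, and the tethBCL2 founders (7758, 7465 and 7466) carry human BCL2 under a tetracycline operator that is driven by an MMTV-LTR tTA transgene. Double transgenic mice from crosses of these founder lines (NRAS/tBCL2, mice 8111, 8019 and 8398) are the model of high-risk myelodysplastic syndrome, HR-MDS. The MRP8hBCL2 founders (3012, 3386 and 3391) carry human BCL2 under the MRP8 promoter. Mice that carry it together with MRP8NRASD12 (NRAS/BCL2, mice 3622, 3626 and 3518) are the model of acute myeloid leukemia after MDS, AML post MDS. All transgenes came from hemizygote crosses, the labels give the disease state AML for every array, and the spleens of the AML post MDS mice were taken at an earlier age than those of the HR-MDS mice. Arrays of FVB/N mice without a transgene were not analysed here, so every difference is between transgenic groups. Values are log2, a log2 difference of 1 is a 2-fold difference, and the values of the 3 mice of a group are always given in the order above.

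Cells meet breaks and blocked replication forks with kinases that halt the cell cycle (Atm and Atr, with Chek1 and Chek2 downstream) and with repair pathways for each kind of lesion. Double-strand breaks are sensed by the MRN complex and are rejoined either by homologous recombination, which copies the sister chromatid and so is used after replication, or by non-homologous end joining, which needs no template and works throughout the cell cycle. The Fanconi anaemia proteins and Brca2 protect stalled forks and remove interstrand crosslinks, and germline loss of this pathway causes marrow failure with a high risk of MDS and AML.

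The arrays of 1 group correlated with each other at a mean r of 0.976 (MRP8NRASD12 8157) to 0.994 over all genes, and the array medians ran from 6.73 to 7.10. MRP8NRASD12 8157 stood apart from the 2 other arrays of its group in many of the 36 genes. It was the highest of all 15 arrays in Atm, Mre11a, Rad50, Mms22l, Fancb, Fancl, Fancm, Wrn, Msh6, Xrcc4, Xrcc5, Xrcc6, Lig4, Prkdc, Parp1 and Xpc. HR-MDS 8398 had less of the neutrophil markers (mean log2 value 8.34, against 10.78 and 11.04 in the 2 other HR-MDS mice). Ly6a, the gene of the Sca1 antigen, has no row of its own here, so the sort was not checked by it. Since each array reads a mixture of cells, fewer cells of a type and less RNA per cell cannot be told apart.

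Repair genes differed between genotypes, but only Bard1 and Fanci between a model and the founder with the same BCL2 transgene. By limma's moderated F test over the 5 groups (Benjamini-Hochberg adjusted p under 0.05, which is the threshold throughout), 20 of 36 differed, beside 34.3% of all genes. By pathway these were 6 of 9 homologous recombination genes, 4 of 7 Fanconi anaemia genes, 2 of 5 end joining genes, both post-replication and mismatch repair genes (Rad18 and Msh6), both single-strand break repair genes (Parp1 and Xrcc1), 2 of 3 nucleotide excision repair genes (Xpa and Xpc), 1 of 3 kinases (Chek1), 1 of 3 MRN genes (Nbn) and neither RecQ helicase. The median F was 4.97 over the 36 genes and 2.45 over all genes.

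**Figure D1:**
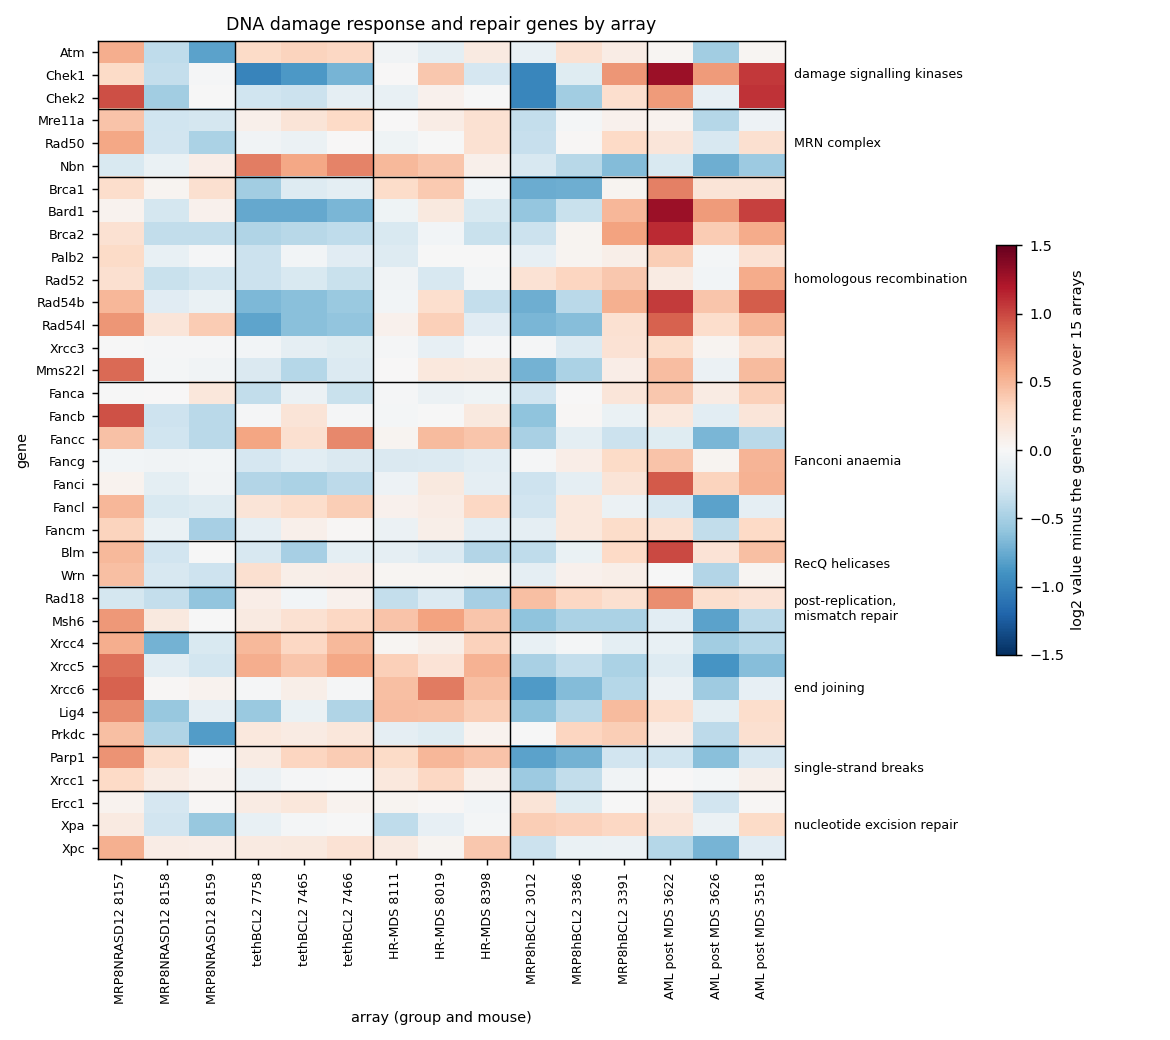
Log2 value of each of the 36 genes (rows, grouped by pathway) on each of the 15 arrays (columns, grouped by genotype), with the gene's mean over the arrays subtracted. Chek1, Bard1, Rad54b and Rad54l were lowest in the tethBCL2 mice or in MRP8hBCL2 3012 and highest in AML post MDS 3622, whereas Parp1, Msh6, Xrcc5 and Xrcc6 were lower in the 6 mice with MRP8hBCL2 than in most others, and MRP8NRASD12 8157 was high in many rows.

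Of the kinases, Chek1, which stops cells with stalled forks before mitosis, differed most. Chek1 read 7.88, 7.23 and 7.58 in MRP8NRASD12, 6.61, 6.73 and 6.9 in tethBCL2, 7.60, 8.0 and 7.35 in HR-MDS, 6.62, 7.42 and 8.26 in MRP8hBCL2, and 8.88, 8.24 and 8.66 in AML post MDS mice. The 3 AML post MDS values stood above those of the HR-MDS and MRP8NRASD12 mice with no overlap, but MRP8hBCL2 3391 read slightly above AML post MDS 3626. Chek1 was higher in AML post MDS than in MRP8NRASD12 mice by 1.03 ± 0.32 (SE; 2.04-fold; adjusted p 0.0359) and than in HR-MDS mice by 0.95 ± 0.32 (adjusted p 0.0493). The first call was lost without MRP8NRASD12 8158 (0.86) or 8159 (1.04) or AML post MDS 3622 (0.88) or 3518 (1.0), and the second passed in 5 of the 15 fits that left out 1 array (0.79 without HR-MDS 8398).

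Chek2 is the kinase activated by Atm at breaks. Its log2 values were 7.88, 6.40 and 6.91 in MRP8NRASD12, 6.63, 6.60 and 6.78 in tethBCL2, 6.81, 6.98 and 6.91 in HR-MDS, 5.95, 6.40 and 7.18 in MRP8hBCL2, and 7.56, 6.80 and 8.0 in AML post MDS mice. The highest and lowest MRP8NRASD12 arrays lay 1.48 log2 units apart, and the F test did not pass (adjusted p 0.282). Atm itself, the kinase that responds to double-strand breaks, read 9.24, 8.31 and 7.88 in MRP8NRASD12, 8.98, 9.02 and 9.0 in tethBCL2, 8.63, 8.54 and 8.83 in HR-MDS, 8.58, 8.92 and 8.80 in MRP8hBCL2, and 8.72, 8.17 and 8.72 in AML post MDS mice. The tethBCL2 mice stood narrowly above every HR-MDS, MRP8hBCL2 and AML post MDS mouse, but the MRP8NRASD12 mice held both the highest and the lowest array, and the F test did not pass (adjusted p 0.473).

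Within the MRN complex, which holds broken ends together and activates Atm, 1 subunit of 3 passed the F test. Nbn, the subunit that binds Atm, read 8.67, 8.80 and 9.0 in MRP8NRASD12, 9.66, 9.48 and 9.64 in tethBCL2, 9.39, 9.32 and 8.98 in HR-MDS, 8.66, 8.48 and 8.25 in MRP8hBCL2, and 8.67, 8.16 and 8.35 in AML post MDS mice. All 3 tethBCL2 mice stood above every other mouse, and all 6 mice with MRP8hBCL2 stood below every mouse without it, by a narrow margin to MRP8NRASD12 8157. Nbn was higher in tethBCL2 than in MRP8NRASD12 mice by 0.77 ± 0.15 (adjusted p 0.00878) and lower in MRP8hBCL2 than in tethBCL2 mice with a log2 difference of -1.13 ± 0.15 (2.19-fold; adjusted p 0.000164). The nuclease and the tether of the complex did not follow it. For Mre11a the values were 9.23, 8.51 and 8.55 in MRP8NRASD12, 8.89, 9.0 and 9.11 in tethBCL2, 8.82, 8.92 and 9.04 in HR-MDS, 8.45, 8.78 and 8.87 in MRP8hBCL2, and 8.86, 8.39 and 8.73 in AML post MDS mice. For Rad50 they were 9.02, 8.14 and 7.96 in MRP8NRASD12, 8.38, 8.35 and 8.44 in tethBCL2, 8.38, 8.43 and 8.67 in HR-MDS, 8.09, 8.45 and 8.73 in MRP8hBCL2, and 8.62, 8.19 and 8.68 in AML post MDS mice. Neither passed the F test (adjusted p 0.478 and 0.985), and in both MRP8NRASD12 8157 was the highest of the 15 arrays.

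In homologous recombination, Bard1, Brca1, Brca2 and both Rad54 genes differed between genotypes, with Bard1 first. Bard1, the partner of Brca1 in its ubiquitin ligase, read 7.20, 6.88 and 7.21 in MRP8NRASD12, 6.37, 6.38 and 6.46 in tethBCL2, 7.08, 7.29 and 6.92 in HR-MDS, 6.57, 6.81 and 7.64 in MRP8hBCL2, and 8.43, 7.78 and 8.17 in AML post MDS mice. The AML post MDS mice lay above all 12 others and the tethBCL2 mice below all others. Bard1 was higher in AML post MDS than in each group it was tested against, by 1.12 ± 0.23 against MRP8hBCL2 (2.17-fold; adjusted p 0.0301), by 1.03 ± 0.23 against MRP8NRASD12 (adjusted p 0.00568) and by 1.03 ± 0.23 against HR-MDS (adjusted p 0.00518). The first of these was lost without MRP8hBCL2 3012 (0.90) or 3386 (1.02) or AML post MDS 3622 (0.97), 3626 (1.29) or 3518 (1.10), and the 2 others held without any 1 array.

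Brca1, which steers breaks to recombination, read 7.56, 7.34 and 7.54 in MRP8NRASD12, 6.77, 7.11 and 7.15 in tethBCL2, 7.57, 7.68 and 7.26 in HR-MDS, 6.55, 6.56 and 7.34 in MRP8hBCL2, and 8.05, 7.49 and 7.49 in AML post MDS mice. Here MRP8hBCL2 3012 and 3386 were the lowest arrays and AML post MDS 3622 the highest. Of the pairs of groups only MRP8hBCL2 against MRP8NRASD12 passed, with Brca1 lower in MRP8hBCL2 with a log2 difference of -0.66 ± 0.21 (adjusted p 0.0412), in 7 of the 15 fits that left out 1 array (-0.53 without MRP8hBCL2 3012 or 3386). Brca2, a mediator of recombination that also protects stalled forks, read 6.77, 6.18 and 6.17 in MRP8NRASD12, 6.09, 6.12 and 6.16 in tethBCL2, 6.31, 6.5 and 6.21 in HR-MDS, 6.22, 6.58 and 7.14 in MRP8hBCL2, and 7.66, 6.93 and 7.10 in AML post MDS mice. It was higher in AML post MDS than in HR-MDS mice by 0.89 ± 0.23 (adjusted p 0.013) and than in MRP8NRASD12 mice by 0.86 ± 0.23 (adjusted p 0.017), and MRP8hBCL2 3391 overlapped the AML post MDS mice. Both calls were lost without AML post MDS 3622 (0.67 and 0.64), and the second also without MRP8NRASD12 8158 or 8159 (0.76 each).

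The paralogs Rad54l and Rad54b are motor proteins that act on chromatin and DNA during recombination. Rad54l read 7.75, 7.28 and 7.47 in MRP8NRASD12, 6.30, 6.46 and 6.5 in tethBCL2, 7.16, 7.45 and 6.92 in HR-MDS, 6.40, 6.46 and 7.32 in MRP8hBCL2, and 7.98, 7.35 and 7.59 in AML post MDS mice. The tethBCL2 mice and MRP8hBCL2 3012 and 3386 formed the low end, below all 10 other arrays. Rad54l was lower in tethBCL2 than in MRP8NRASD12 mice with a log2 difference of -1.08 ± 0.23 (2.11-fold; adjusted p 0.0126), and lower in MRP8hBCL2 than in MRP8NRASD12 mice with a log2 difference of -0.77 ± 0.23 (adjusted p 0.0298). The first was lost without tethBCL2 7758 (-1.02) and the second without MRP8NRASD12 8157 (-0.65) or 8159 (-0.79) or MRP8hBCL2 3012 (-0.61) or 3386 (-0.64). Rad54b read 6.19, 5.52 and 5.59 in MRP8NRASD12, 5.01, 5.06 and 5.13 in tethBCL2, 5.65, 5.94 and 5.33 in HR-MDS, 4.95, 5.29 and 6.22 in MRP8hBCL2, and 6.73, 6.11 and 6.59 in AML post MDS mice. It was higher in AML post MDS than in HR-MDS mice by 0.84 ± 0.29 (adjusted p 0.0488), a call that passed in 5 of the 15 fits that left out 1 array (0.68 without HR-MDS 8398). In the annotation Rad54l overlaps Lrrc41 and Rad54b overlaps Fsbp, and which exons the probe sets read is not given in the files used here.

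Mms22l, needed for recombination at stalled forks, read 7.74, 6.86 and 6.84 in MRP8NRASD12, 6.67, 6.46 and 6.68 in tethBCL2, 6.9, 7.05 and 7.04 in HR-MDS, 6.18, 6.42 and 6.99 in MRP8hBCL2, and 7.35, 6.81 and 7.36 in AML post MDS mice. Its highest array was MRP8NRASD12 8157, and no test of it passed (F test, adjusted p 0.123). Of the 3 remaining genes of this pathway, Rad52, a strand annealing protein, was higher in MRP8hBCL2 than in tethBCL2 mice by 0.61 ± 0.16 (adjusted p 0.0152), but not without tethBCL2 7466 (0.59) or MRP8hBCL2 3391 (0.56). Palb2 and Xrcc3 passed no test between groups, with group means that spanned 5.84 (tethBCL2) to 6.21 (AML post MDS) and 6.71 (tethBCL2) to 7.0 (AML post MDS).

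In the Fanconi anaemia pathway 2 genes were higher in the AML post MDS mice than in the HR-MDS and MRP8NRASD12 mice. Fanci, the partner of Fancd2 in the clamp that closes on crosslinked DNA, read 6.52, 6.33 and 6.42 in MRP8NRASD12, 6.03, 6.0 and 6.08 in tethBCL2, 6.39, 6.61 and 6.33 in HR-MDS, 6.15, 6.33 and 6.66 in MRP8hBCL2, and 7.39, 6.81 and 6.99 in AML post MDS mice. The AML post MDS mice stood above the 12 others, by 0.68 ± 0.15 against MRP8hBCL2 (1.6-fold; adjusted p 0.0389), 0.64 ± 0.15 against MRP8NRASD12 (adjusted p 0.00803) and 0.62 ± 0.15 against HR-MDS (adjusted p 0.00924). Fancg, a subunit of the core complex, read 7.22, 7.20 and 7.22 in MRP8NRASD12, 7.0, 7.09 and 7.04 in tethBCL2, 7.04, 7.05 and 7.09 in HR-MDS, 7.23, 7.36 and 7.54 in MRP8hBCL2, and 7.69, 7.29 and 7.76 in AML post MDS mice. The spread within the MRP8NRASD12, tethBCL2 and HR-MDS groups was small, and Fancg was higher in AML post MDS than in HR-MDS mice by 0.52 ± 0.12 (adjusted p 0.0051).

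Another core complex gene ran the opposite way. Fancc read 6.60, 5.85 and 5.75 in MRP8NRASD12, 6.75, 6.39 and 6.88 in tethBCL2, 6.20, 6.63 and 6.57 in HR-MDS, 5.67, 6.0 and 5.84 in MRP8hBCL2, and 5.97, 5.47 and 5.75 in AML post MDS mice. It was lower in AML post MDS than in HR-MDS mice with a log2 difference of -0.74 ± 0.22 (adjusted p 0.0235) and lower in MRP8hBCL2 than in tethBCL2 mice with a log2 difference of -0.84 ± 0.22 (adjusted p 0.0123). The first was lost without HR-MDS 8019 (-0.66) or 8398 (-0.68) or AML post MDS 3626 (-0.60) or 3518 (-0.75), and the second without tethBCL2 7466 (-0.74). Fancm, the translocase that brings the core complex to forks, read 7.64, 7.21 and 6.82 in MRP8NRASD12, 7.18, 7.39 and 7.34 in tethBCL2, 7.22, 7.40 and 7.15 in HR-MDS, 7.18, 7.47 and 7.59 in MRP8hBCL2, and 7.54, 6.94 and 7.61 in AML post MDS mice. No group of it stood apart (F test, adjusted p 0.92). Fanca passed the F test (adjusted p 0.0324) with group means from 7.10 (tethBCL2) to 7.66 (AML post MDS), but no pair of groups passed. Fancl and Fancb passed neither, with group means from 7.34 (AML post MDS) to 8.0 (tethBCL2) and from 5.69 (MRP8hBCL2) to 6.0 (MRP8NRASD12).

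The RecQ helicases unwind recombination intermediates and stalled forks. Blm read 7.59, 6.81 and 7.10 in MRP8NRASD12, 6.86, 6.60 and 6.95 in tethBCL2, 6.96, 6.89 and 6.66 in HR-MDS, 6.72, 6.99 and 7.40 in MRP8hBCL2, and 8.09, 7.30 and 7.55 in AML post MDS mice. AML post MDS 3622 was the highest array, and Blm was higher in AML post MDS than in HR-MDS mice by 0.81 ± 0.23 (adjusted p 0.0207) although its F test missed the threshold (adjusted p 0.0538). That call was lost without HR-MDS 8398 (0.72) or AML post MDS 3622 (0.59). Wrn read 8.15, 7.46 and 7.39 in MRP8NRASD12, 7.94, 7.79 and 7.80 in tethBCL2, 7.73, 7.73 and 7.74 in HR-MDS, 7.57, 7.76 and 7.79 in MRP8hBCL2, and 7.69, 7.26 and 7.73 in AML post MDS mice. All but MRP8NRASD12 8157 lay within 0.69 log2 units, and its F test gave an adjusted p of 0.726.

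Rad18 and Msh6 ran in opposite directions. Rad18, the ligase that marks the replication clamp for bypass of lesions, read 8.40, 8.31 and 8.07 in MRP8NRASD12, 8.77, 8.63 and 8.73 in tethBCL2, 8.31, 8.45 and 8.17 in HR-MDS, 9.11, 8.97 and 8.91 in MRP8hBCL2, and 9.36, 8.92 and 8.87 in AML post MDS mice. Every mouse with MRP8hBCL2 read above every mouse without it, and the tethBCL2 mice in turn read above all MRP8NRASD12 and HR-MDS mice. The difference was 0.79 ± 0.14 between AML post MDS and MRP8NRASD12 (adjusted p 0.000944), 0.74 ± 0.14 between AML post MDS and HR-MDS (adjusted p 0.00136) and 0.74 ± 0.14 between the MRP8hBCL2 and MRP8NRASD12 founders (adjusted p 0.00165).

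Msh6, which recognises mismatched bases, read 8.64, 8.13 and 7.98 in MRP8NRASD12, 8.11, 8.21 and 8.29 in tethBCL2, 8.41, 8.59 and 8.40 in HR-MDS, 7.37, 7.51 and 7.51 in MRP8hBCL2, and 7.82, 7.18 and 7.58 in AML post MDS mice. Every mouse with MRP8hBCL2 read below every mouse without it. Msh6 was lower in AML post MDS than in HR-MDS mice with a log2 difference of -0.94 ± 0.17 (1.91-fold; adjusted p 0.00127), and lower in MRP8hBCL2 than in tethBCL2 mice with a log2 difference of -0.74 ± 0.17 (adjusted p 0.00637).

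The end joining genes fell into 2 kinds. Xrcc5, which encodes the Ku80 subunit of the ring that caps broken ends, read 9.41, 8.43 and 8.32 in MRP8NRASD12, 9.13, 9.01 and 9.17 in tethBCL2, 8.95, 8.80 and 9.10 in HR-MDS, 8.10, 8.24 and 8.11 in MRP8hBCL2, and 8.40, 7.71 and 7.95 in AML post MDS mice. Xrcc6, which encodes the Ku70 subunit, read 8.33, 7.47 and 7.50 in MRP8NRASD12, 7.43, 7.54 and 7.43 in tethBCL2, 7.90, 8.22 and 7.89 in HR-MDS, 6.59, 6.80 and 7.03 in MRP8hBCL2, and 7.36, 6.92 and 7.33 in AML post MDS mice. Both subunits were lower in AML post MDS than in HR-MDS mice with a log2 difference of -0.93 ± 0.24 for Xrcc5 (adjusted p 0.0112) and with a log2 difference of -0.80 ± 0.21 for Xrcc6 (adjusted p 0.0118). Without AML post MDS 3626 neither passed (-0.77 and -0.66), and without HR-MDS 8019 Xrcc6 did not (-0.70). They were likewise lower in MRP8hBCL2 than in tethBCL2 mice, with a log2 difference of -0.95 ± 0.24 (adjusted p 0.0102) and -0.66 ± 0.21 (adjusted p 0.0355), of which the Xrcc6 call was lost without any 1 tethBCL2 array (-0.62 to -0.68) or MRP8hBCL2 3012 (-0.55) or 3386 (-0.65). The highest group mean of Xrcc6 was that of the HR-MDS mice, but the difference from tethBCL2 mice, 0.54 ± 0.21, had an adjusted p of 0.316.

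The ligase complex and the kinase of this pathway did not differ by the F test. Xrcc4, the scaffold of the ligase, read 8.75, 7.51 and 7.98 in MRP8NRASD12, 8.70, 8.52 and 8.69 in tethBCL2, 8.24, 8.29 and 8.56 in HR-MDS, 8.10, 8.18 and 8.07 in MRP8hBCL2, and 8.10, 7.69 and 7.79 in AML post MDS mice. Lig4, the ligase itself, read 7.91, 6.63 and 7.06 in MRP8NRASD12, 6.64, 7.09 and 6.75 in tethBCL2, 7.66, 7.65 and 7.57 in HR-MDS, 6.58, 6.78 and 7.66 in MRP8hBCL2, and 7.44, 7.05 and 7.46 in AML post MDS mice. The Lig4 values of the HR-MDS mice stood above those of the tethBCL2 mice with no overlap (difference 0.80 ± 0.30; adjusted p 0.307), and those of the MRP8NRASD12 founders spread over 1.28 log2 units. Prkdc, the DNA-dependent kinase that Ku recruits, had group means from 7.97 (MRP8NRASD12) to 8.48 (MRP8hBCL2).

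Both single-strand break repair genes were lower in the MRP8hBCL2 founders than in the MRP8NRASD12 founders. Parp1, which senses nicks and builds poly(ADP-ribose), read 10.10, 9.69 and 9.43 in MRP8NRASD12, 9.55, 9.75 and 9.80 in tethBCL2, 9.71, 9.93 and 9.86 in HR-MDS, 8.63, 8.71 and 9.14 in MRP8hBCL2, and 9.13, 8.80 and 9.17 in AML post MDS mice. No mouse with MRP8hBCL2 reached the lowest mouse without it. Parp1 was lower in MRP8hBCL2 than in MRP8NRASD12 mice with a log2 difference of -0.91 ± 0.17 (1.88-fold; adjusted p 0.00205), lower in MRP8hBCL2 than in tethBCL2 mice with a log2 difference of -0.88 ± 0.17 (adjusted p 0.00245) and lower in AML post MDS than in HR-MDS mice with a log2 difference of -0.80 ± 0.17 (adjusted p 0.00418). Xrcc1, the scaffold that Parp1 recruits, read 8.82, 8.65 and 8.58 in MRP8NRASD12, 8.44, 8.50 and 8.52 in tethBCL2, 8.69, 8.83 and 8.60 in HR-MDS, 7.98, 8.15 and 8.47 in MRP8hBCL2, and 8.52, 8.50 and 8.60 in AML post MDS mice. MRP8hBCL2 3012 and 3386 were the lowest arrays, and the difference of MRP8hBCL2 from MRP8NRASD12 mice was -0.48 ± 0.12 (adjusted p 0.00966).

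Nucleotide excision repair removes bulky adducts. In both groups with MRP8hBCL2 its damage sensor Xpc had a lower mean, and its verification factor Xpa a higher mean, than in the other groups. Xpc read 8.32, 7.90 and 7.90 in MRP8NRASD12, 7.93, 7.94 and 8.01 in tethBCL2, 7.93, 7.84 and 8.20 in HR-MDS, 7.47, 7.70 and 7.70 in MRP8hBCL2, and 7.37, 7.10 and 7.63 in AML post MDS mice. It was lower in AML post MDS than in MRP8NRASD12 mice with a log2 difference of -0.68 ± 0.15 (adjusted p 0.00537) and than in HR-MDS mice with a log2 difference of -0.62 ± 0.15 (adjusted p 0.00823). The MRP8hBCL2 mice did not pass against MRP8NRASD12 (-0.42; adjusted p 0.0653) or tethBCL2 mice (-0.33; adjusted p 0.142). Xpa read 8.31, 7.89 and 7.61 in MRP8NRASD12, 8.07, 8.15 and 8.17 in tethBCL2, 7.80, 8.06 and 8.15 in HR-MDS, 8.54, 8.52 and 8.48 in MRP8hBCL2, and 8.36, 8.09 and 8.46 in AML post MDS mice. It was higher in MRP8hBCL2 than in MRP8NRASD12 mice by 0.58 ± 0.16 (adjusted p 0.0164), but not without MRP8NRASD12 8158 (0.56) or 8159 (0.42). Against tethBCL2 mice the MRP8hBCL2 mice did not pass (0.39; adjusted p 0.0983). Nor did AML post MDS pass against MRP8NRASD12 (0.37; adjusted p 0.111) or HR-MDS mice (0.30; adjusted p 0.191). Ercc1, part of the nuclease that cuts 5' of a lesion, read 8.19, 7.89 and 8.16 in MRP8NRASD12, 8.26, 8.31 and 8.19 in tethBCL2, 8.18, 8.15 and 8.10 in HR-MDS, 8.33, 7.95 and 8.13 in MRP8hBCL2, and 8.25, 7.86 and 8.15 in AML post MDS mice. It stayed within 0.47 log2 units over all 15 arrays (F test, adjusted p 0.756).

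Each model was first compared with the founder that shares its BCL2 transgene, which asks what NRASD12 adds. In HR-MDS against tethBCL2 mice, none of the 36 genes passed by limma, beside 0.451% of all genes. At an unadjusted p under 0.05, 7 were higher (Chek1, Bard1, Brca1, Rad54l, Fanci, Xrcc6 and Lig4) and 2 lower (Nbn and Rad18), beside 1248 genes higher and 432 lower of all 14860, and the methods' t-test called 15 without adjustment and none after it. The largest differences were 0.90 ± 0.32 for Chek1 (adjusted p 0.279), 0.80 ± 0.30 for Lig4 and 0.76 ± 0.23 for Rad54l (adjusted p 0.193). In 14 of the 36 genes all 3 HR-MDS arrays read above all 3 tethBCL2 arrays, and in 6 below, beside 16.6% and 9.53% of all genes, and for a single gene of 3 arrays against 3 an exact permutation test cannot give a two-sided p below 0.1. The 9 homologous recombination genes all had a higher mean in HR-MDS mice, with a median difference of 0.39, beside 59.1% above 0 and a median of 0.04 over all genes. Of 20 further recombination genes 14 had a higher mean, with a median difference of 0.10. Alongside, 7 of 22 genes of mitosis and 12 of 14 neutrophil markers were higher in HR-MDS mice by the same test, and their part in the differences was not tested.

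In AML post MDS against MRP8hBCL2 mice, Bard1 and Fanci were higher, so 2 of 36 passed and none was lower, beside 1.93% of all genes (1.29% higher and 0.646% lower). Before adjustment 12 had a p under 0.05, each of them higher, beside 1501 genes higher and 843 lower of all 14860. The largest differences below the threshold were 1.16 ± 0.32 for Chek1 (adjusted p 0.082), 0.99 ± 0.29 for Rad54b (adjusted p 0.0924), 0.94 ± 0.37 for Chek2 (adjusted p 0.22), 0.92 ± 0.23 for Rad54l (adjusted p 0.0625) and 0.86 ± 0.21 for Brca1 (adjusted p 0.0568). Of the homologous recombination genes 8 of 9 had a higher mean in AML post MDS, with a median difference of 0.64, beside 57.1% above 0 and a median of 0.03 over all genes. Of the 20 further recombination genes 13 did, with a median difference of 0.18. All 3 AML post MDS arrays read above all 3 MRP8hBCL2 arrays in 5 genes and below them in 1, beside 11% and 7.21% of all genes. The array MRP8hBCL2 3391 read like the AML post MDS mice in many of these genes, and without it 7 genes passed, whereas without MRP8hBCL2 3012 or 3386, or without any 1 of the AML post MDS arrays, none did. The share of all genes called in these fits is not given here. Over all 15 fits that left out 1 array, Bard1 passed in 10 and Fanci in 5 (0.51 without AML post MDS 3622). Of the 22 mitosis genes 16 were higher in AML post MDS mice, and of 14 neutrophil markers 2. No T cell marker passed, but all 8 were lower at an unadjusted p under 0.05 by limma, with no overlap of arrays. At that p 3 of 8 B cell markers were lower. Higher at that p were 7 of the 14 neutrophil, 4 of 10 monocyte and macrophage and 4 of 8 stem and progenitor markers. The part of these cells in the differences was not tested.

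**Figure D2:**
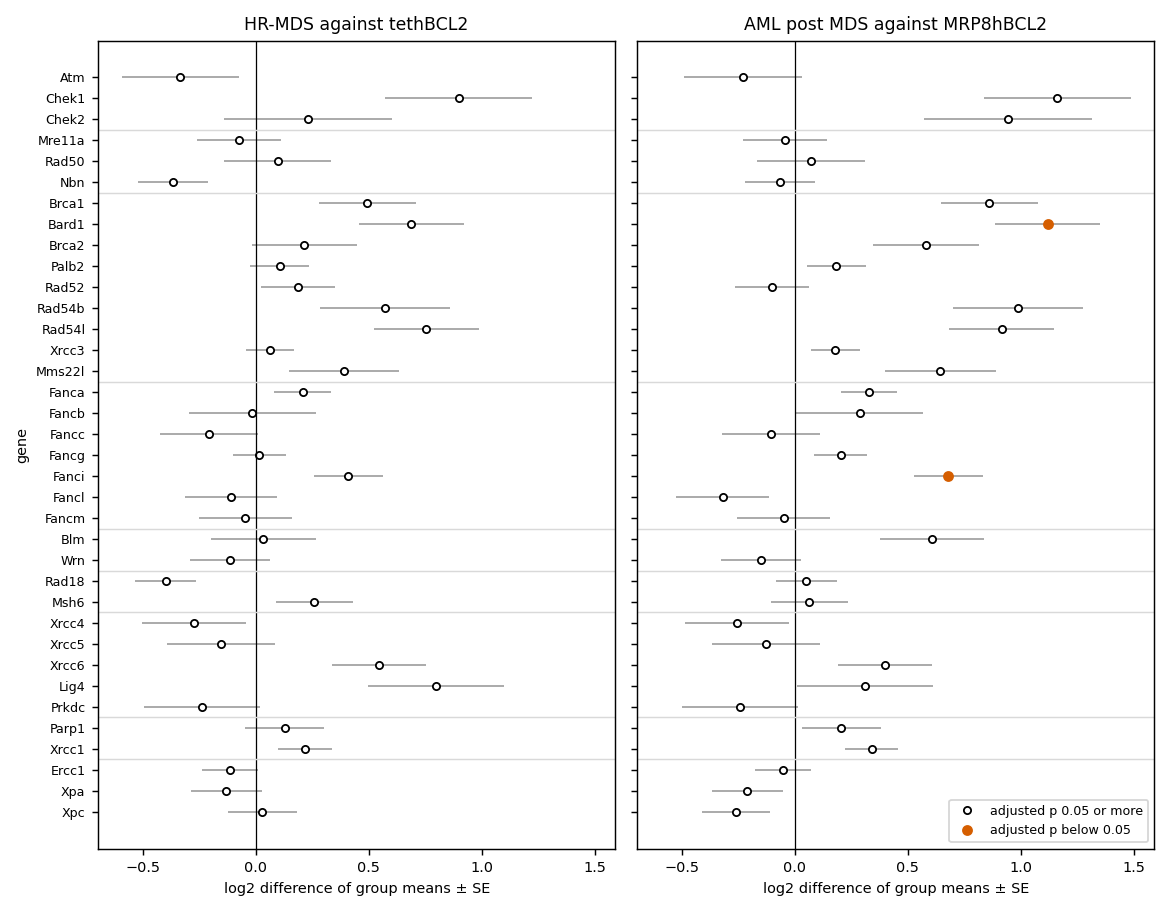
Log2 difference of group means ± SE (limma) of each of the 36 genes in HR-MDS against tethBCL2 mice and in AML post MDS against MRP8hBCL2 mice, n = 3 arrays in each group, with filled points for an adjusted p below 0.05. Bard1 and Fanci pass in the second comparison and no gene in the first.

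The 2 changes share no array and can be set side by side. Chek1 differed by 0.90 ± 0.32 in HR-MDS and 1.16 ± 0.32 in AML post MDS, Bard1 by 0.69 ± 0.23 and 1.12 ± 0.23, Rad54b by 0.57 ± 0.29 and 0.99 ± 0.29, and Rad54l by 0.76 ± 0.23 and 0.92 ± 0.23. In a contrast of the fitted model, the changes of the 2 models differed in none of the 36 genes, beside 0% of all genes and under none of the other settings tried. Before adjustment only Rad18 had a p under 0.05, with a difference of 0.45 ± 0.19 between the changes (limma, adjusted p 1), from -0.40 ± 0.14 in HR-MDS and 0.05 ± 0.14 in AML post MDS mice.

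Against the other founder, MRP8NRASD12, the models asked what the BCL2 transgene adds. HR-MDS and MRP8NRASD12 mice differed in none of the 36 genes (0.0135% of all genes), and at an unadjusted p under 0.05 only Nbn was higher, by 0.41 ± 0.15, while the methods' t-test without adjustment called 1 gene, as lower. AML post MDS and MRP8NRASD12 mice differed in 9 of 36, beside 22.4% of all genes, with 6 higher (Chek1, Bard1, Brca2, Fancg, Fanci and Rad18; 13.6% of all genes) and 3 lower (Msh6, Parp1 and Xpc; 8.74%). Without MRP8NRASD12 8157 this count was 15. Fancg passed in 10 of the 15 fits that left out 1 array (0.28 without AML post MDS 3518).

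AML post MDS differed from HR-MDS mice in 15 of 36 genes, beside 24.2% of all genes. The 8 higher genes were Chek1, Bard1, Brca2, Rad54b, Fancg, Fanci, Blm and Rad18 (14.3% of all genes), and the 7 lower ones were Nbn, Fancc, Msh6, Xrcc5, Xrcc6, Parp1 and Xpc (9.9%). The founders also differed among themselves. In tethBCL2 against MRP8NRASD12 mice Nbn was higher and Rad54l lower, 2 of 36 beside 8.83% of all genes (2.85% higher and 5.98% lower), and the count was 10 without MRP8NRASD12 8157 and 1 without tethBCL2 7758. In MRP8hBCL2 against MRP8NRASD12 mice 8 of 36 passed beside 22.1% of all genes, with Rad18 and Xpa higher (12.2%) and Brca1, Rad54l, Msh6, Xrcc6, Parp1 and Xrcc1 lower (9.93%). In MRP8hBCL2 against tethBCL2 mice 7 of 36 passed beside 22.6%, with Rad52 higher (13.5%) and Nbn, Fancc, Msh6, Xrcc5, Xrcc6 and Parp1 lower (9.12%), and without tethBCL2 7466 the count was 4. For the counts without 1 array, the share of all genes called is not given here. The pairs of groups share groups with each other and are not independent.

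Many recombination genes are transcribed in S and G2 phase, so the 36 genes were set against a mitosis index, the mean log2 value of 22 genes of mitosis such as Mki67 and Cdk1, none of which is a repair gene listed here. The index read 8.25, 7.86 and 8.36 in MRP8NRASD12, 6.38, 6.42 and 6.54 in tethBCL2, 7.77, 8.25 and 7.47 in HR-MDS, 6.99, 7.24 and 8.40 in MRP8hBCL2, and 9.25, 8.74 and 8.83 in AML post MDS mice. It was lowest in the tethBCL2 and highest in the AML post MDS group, and MRP8hBCL2 3391 stood well above the 2 other mice of its genotype.

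Within groups, in a limma model with a mean for each genotype and the index as a covariate, 6 of 36 genes rose with the index, beside 1.93% of all genes (1.91% rising and 0.0202% falling). The slopes, in log2 units per log2 unit of the index, were 0.99 ± 0.14 (SE) for Chek1 (adjusted p 0.00222), 0.84 ± 0.14 for Rad54b (adjusted p 0.00859), 0.72 ± 0.09 for Bard1 (adjusted p 0.00111), 0.71 ± 0.10 for Rad54l (adjusted p 0.00222), 0.63 ± 0.10 for Brca1 (adjusted p 0.00761) and 0.40 ± 0.09 for Fanci (adjusted p 0.0484). Brca2 lay just outside the threshold (0.61 ± 0.14; adjusted p 0.0513), and Chek2, Lig4, Blm and Mms22l had slopes of 0.75 ± 0.29, 0.68 ± 0.22, 0.54 ± 0.16 and 0.47 ± 0.19 that did not pass. Of the 36 slopes 34 were above 0, beside 56.8% of all genes, with Nbn at -0.01 ± 0.15 and Xpa at -0.02 ± 0.15 the exceptions. The index and the genes were read on the same arrays, so array quality can move both.

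Fanci passed in only 2 of the 15 fits that left out 1 array (0.34 to 0.53 in those it did not), and Rad54b was lost without MRP8hBCL2 3012 (0.79) as well as 3391. The MRP8hBCL2 group carried 64.7% of the sum of squares of the index within groups, mostly by mouse 3391. Without that array none of the 36 slopes passed, and those of the 6 genes were 1.04 ± 0.23 for Chek1, 0.79 ± 0.24 for Rad54b, 0.68 ± 0.16 for Bard1, 0.75 ± 0.17 for Rad54l, 0.65 ± 0.18 for Brca1 and 0.53 ± 0.15 for Fanci, close to the values with it but with larger SE (unadjusted p from 0.000895 for Chek1 to 0.00697 for Rad54b). Over all 15 arrays without group means, 15 of 36 passed beside 15.3% of all genes, and this slope holds the differences between genotypes as well. Other lists moved with the index: in mouse 3391 the mean of 6 germinal centre B cell markers was 8.23, against 6.84 and 7.05 in the 2 other MRP8hBCL2 mice, the mean of 7 plasma cell markers was 9.47, against 8.46 and 8.38, the mean of 8 stem and progenitor markers was 7.72, against 7.01 and 7.02, and the mean of 7 erythroid markers was 7.53, against 6.67 and 6.72. Of their slopes on the index 3 of 6, 3 of 7, 2 of 8 and 0 of 7 passed (4 of the 7 erythroid slopes had an unadjusted p under 0.05 by limma). No monocyte and macrophage or neutrophil slope passed, but 7 of 10 and 6 of 14 had an unadjusted p under 0.05 by limma. In mouse 3391 the monocyte and macrophage mean was 9.13, against 7.94 and 8.64 in the 2 others. Its neutrophil mean was 9.86, against 9.07 and 9.12. The part of these cells in the slopes was not tested.

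**Figure D3:**
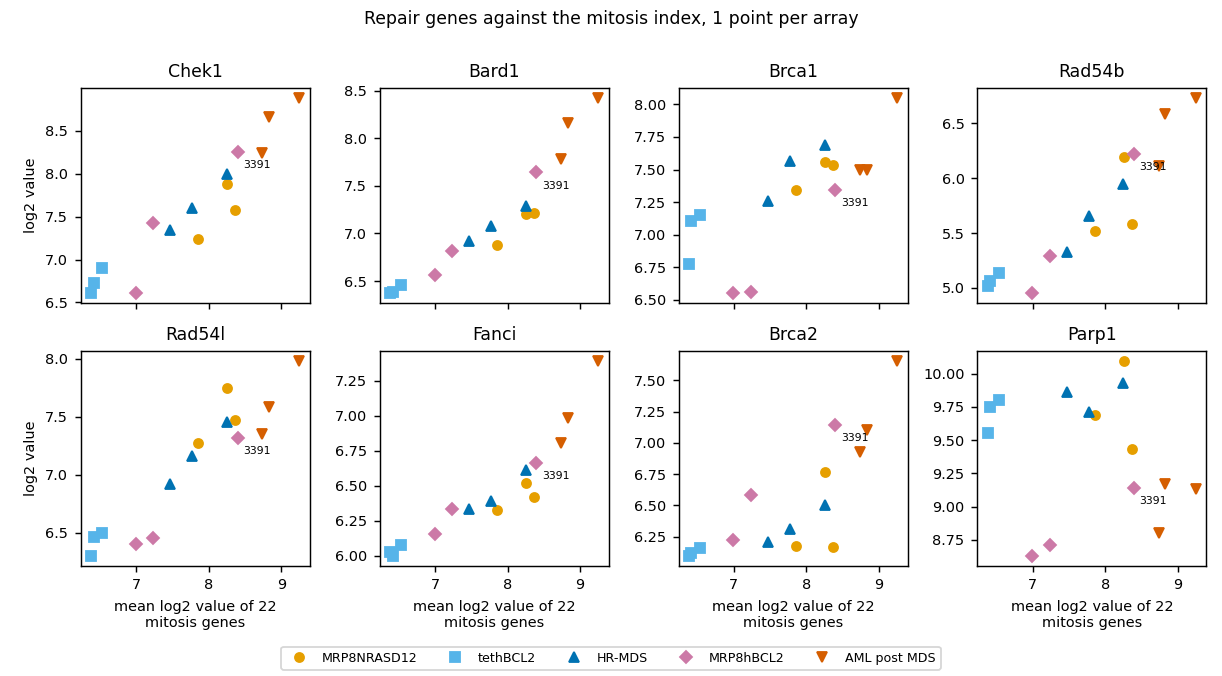
Log2 value of 8 repair genes against the mitosis index (mean log2 value of 22 mitosis genes), 1 point per array, with colour and shape for the genotype and MRP8hBCL2 3391 marked. Chek1, Bard1, Rad54b, Rad54l and Fanci run along the index from the tethBCL2 mice at 6.38 to AML post MDS 3622 at 9.25, whereas Parp1 splits into the 6 arrays with and the 9 arrays without MRP8hBCL2.

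With the index in the model, some differences between groups came closer to 0 and others grew or changed sign. Between AML post MDS and HR-MDS mice Chek1 went from 0.95 ± 0.32 to -0.16 ± 0.21, Rad54b from 0.84 ± 0.29 to -0.09 ± 0.22 and Bard1 from 1.03 ± 0.23 to 0.23 ± 0.14, whereas Parp1 went from -0.80 ± 0.17 to -1.13 ± 0.22 (adjusted p 0.007), Msh6 from -0.94 ± 0.17 to -1.15 ± 0.24 (adjusted p 0.00905) and Rad18 from 0.74 ± 0.14 to 0.68 ± 0.20 (adjusted p 0.0467). The count of genes that differed between AML post MDS and HR-MDS was 6 with the index and 15 without it, and between AML post MDS and MRP8hBCL2 it was 0 and 2. The share of all genes called with the index is not given here, so these counts cannot be read as particular to repair genes. Some genes passed only with the index. In MRP8hBCL2 against tethBCL2 mice Brca1 differed by -0.19 ± 0.21 without the index and -0.88 ± 0.16 with it (adjusted p 0.0045), and in AML post MDS against MRP8NRASD12 mice Rad54l differed by 0.14 ± 0.23 and -0.42 ± 0.13 (adjusted p 0.0489). Chek1 changed sign in tethBCL2 against MRP8NRASD12 mice, from -0.82 ± 0.32 to 0.88 ± 0.28, and neither value passed. The index differs between the groups, so the part of a group difference that goes with the index cannot be told apart from other effects of the genotype. The tethBCL2 (6.38 to 6.54) and AML post MDS arrays (8.74 to 9.25) overlapped no other group on the index, so their differences with the index are extrapolations. These rest on slopes within groups, for which the MRP8hBCL2 group carried 64.7% of the sum of squares of the index.

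Genes of this kind are often controlled by E2F factors, which activate transcription at the entry to S phase. RefSeq promoter windows (GRCm38.p6), from 250 bases before the start to 50 after it, were given for 30 of the 36 genes and were searched on both strands for the E2F letters TTTCCCGC, TTTCGCGC, TTTGCCGC and TTTGGCGC, a search chosen after the values were seen. A match lay in 6 of the 30 genes (Chek2, Bard1, Brca2, Fancg, Msh6 and Xrcc6), 20% beside 2.6% of all 27025 genes with a window. Of the 6 genes whose slope passed, 5 had a window, and 1 of them (Bard1) a match. CCAAT, a motif common near start sites, lay in 17 of the 30 (56.7%, beside 41.1% of all genes), and TTTGAA or TTCGAA, letters of the cell cycle homology region, in 1 (3.33%, beside 21.7%). These are matches of letters and not binding sites. The 250 bases before the start are shown for Bard1, whose slope passed, for Brca2 and Chek2, whose slopes did not, and, as an end joining gene with the same letters, for Xrcc6, with the E2F letters in capitals, 5′ to 3′ along the gene's strand. The match began 209 bases before the start in Bard1, 168 in Brca2, 152 in Chek2 and 46 in Xrcc6. In Brca2, Chek2 and Xrcc6 the letters TTTCCCGC lay on the opposite strand, so the capitals read GCGGGAAA.
Bard1 (chr1:71102973-71103222, minus strand): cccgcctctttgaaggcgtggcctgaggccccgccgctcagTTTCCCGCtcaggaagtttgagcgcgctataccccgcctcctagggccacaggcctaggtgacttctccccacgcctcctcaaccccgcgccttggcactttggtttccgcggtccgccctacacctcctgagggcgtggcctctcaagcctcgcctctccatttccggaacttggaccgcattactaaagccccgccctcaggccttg
Brca2 (chr5:150522371-150522620, plus strand): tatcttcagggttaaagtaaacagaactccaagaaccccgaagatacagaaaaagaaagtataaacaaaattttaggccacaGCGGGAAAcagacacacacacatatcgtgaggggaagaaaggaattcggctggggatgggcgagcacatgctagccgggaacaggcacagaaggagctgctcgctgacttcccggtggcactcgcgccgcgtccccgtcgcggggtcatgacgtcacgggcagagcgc
Chek2 (chr5:110839733-110839982, plus strand): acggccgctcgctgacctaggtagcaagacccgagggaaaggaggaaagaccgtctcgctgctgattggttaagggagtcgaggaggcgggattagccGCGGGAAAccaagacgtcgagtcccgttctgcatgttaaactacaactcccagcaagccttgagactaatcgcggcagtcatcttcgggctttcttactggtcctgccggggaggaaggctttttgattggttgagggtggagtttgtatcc
Xrcc6 (chr15:82016119-82016368, plus strand): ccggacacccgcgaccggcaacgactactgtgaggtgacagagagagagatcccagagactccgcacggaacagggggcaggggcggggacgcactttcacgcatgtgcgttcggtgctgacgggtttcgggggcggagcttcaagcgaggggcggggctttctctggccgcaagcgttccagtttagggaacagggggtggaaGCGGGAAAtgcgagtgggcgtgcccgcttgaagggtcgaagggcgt

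The second pattern followed the MRP8hBCL2 transgene. Parp1, Msh6, Nbn, Xrcc5 and Xrcc6 were lower, and Rad18, Fancg, Xpa and Rad52 higher, in the 2 groups that carry it (MRP8hBCL2 and AML post MDS) than in the 3 that do not (MRP8NRASD12, tethBCL2 and HR-MDS). This contrast of the same limma model was chosen after the values had been seen. It called 18 of 36 genes, 9 higher and 9 lower, beside 36.6% of all genes (20.9% higher and 15.7% lower), so differences of this kind ran through much of the array. The 9 lower genes were Nbn (-0.79 ± 0.10; adjusted p 2.96e-05), Parp1 (-0.83 ± 0.11; 1.78-fold), Msh6 (-0.81 ± 0.11), Xrcc5 (-0.84 ± 0.15), Xrcc6 (-0.74 ± 0.13), Fancc (-0.62 ± 0.14), Xpc (-0.50 ± 0.10), Fancl (-0.39 ± 0.13) and Xrcc1 (-0.26 ± 0.08). The 9 higher genes were Rad18 (0.60 ± 0.09; adjusted p 0.000108), Rad52 (0.44 ± 0.11), Xpa (0.39 ± 0.10), Fancg (0.37 ± 0.08), Bard1 (0.70 ± 0.15), Chek1 (0.69 ± 0.21), Brca2 (0.66 ± 0.15), Fanci (0.42 ± 0.10) and Blm (0.41 ± 0.15). Blm was called in 3 (0.30 without AML post MDS 3622) and Fancl in 9 (-0.28 without AML post MDS 3626) of the 15 fits that left out 1 array, and Chek1 was lost without AML post MDS 3622 (0.62).

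In Nbn, Parp1, Msh6, Xrcc6 and Xpc all 6 arrays with the transgene read below all 9 without it, and in Rad18 and Fancg above, which is 5 and 2 of 36 genes beside 5.37% and 7.82% of all genes. With the mitosis index in the model 11 of 36 passed, a count for which the share of all genes is likewise not given here. Of these, 9 were among the 18 (Nbn, Fancc, Msh6, Xrcc5, Xrcc6, Parp1, Xrcc1 and Xpc lower and Rad18 higher), and Brca1 (-0.56 ± 0.11; adjusted p 0.00224) and Rad54l (-0.39 ± 0.10; adjusted p 0.0136) were added as lower. Of the 18 genes, Bard1 and Fanci also passed between the 2 groups that carry the transgene, and Nbn passed between tethBCL2 and MRP8NRASD12 mice, which both lack it. Of the lower genes, Parp1 differed by 0.21 ± 0.17 between AML post MDS and MRP8hBCL2 mice (adjusted p 0.667) and by 0.13 ± 0.17 between HR-MDS and tethBCL2 mice (adjusted p 0.84), and Msh6 by 0.06 ± 0.17 (adjusted p 0.93) and 0.26 ± 0.17 (adjusted p 0.639). In the same order, Nbn differed by -0.07 and -0.37, Xrcc5 by -0.13 and -0.15, Xrcc6 by 0.40 and 0.54, and Fancc by -0.11 and -0.21. Xpc differed by -0.26 and 0.03, Fancl by -0.32 and -0.11, and Xrcc1 by 0.34 and 0.22. None of these passed.

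The mice with MRP8hBCL2 are numbered from 3012 to 3626 and those without it from 7465 to 8398, so the transgene and anything else that goes with these 2 series of mice cannot be told apart. Some T cell markers moved with the contrast as well: 5 of 8 were higher and none lower, with differences from -0.28 to 2.63. At an unadjusted p under 0.05 by limma 1 of the 8 was lower. The mean of the 8 ran from 10.90 to 11.10 in the MRP8hBCL2 and 10.22 to 10.53 in the AML post MDS mice, against 9.42 to 9.92 in MRP8NRASD12, 10.05 to 10.35 in tethBCL2 and 9.75 to 10.31 in HR-MDS mice. Neutrophil markers were lowest in the tethBCL2 mice (5.73 to 6.05) and ran from 8.34 to 12.03 in the 4 other groups. In the contrast 7 of 14 neutrophil markers were higher and 1 lower, and 12 of 22 mitosis genes were higher. Higher too were 4 of 8 stem and progenitor and 3 of 6 germinal centre B cell markers. Both directions were called for B cell (2 higher and 3 lower of 8), plasma cell (2 and 1 of 7) and monocyte and macrophage markers (1 and 1 of 10). Of 7 erythroid markers 1 was lower. The part of these cells in the differences was not tested.

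**Figure D4:**
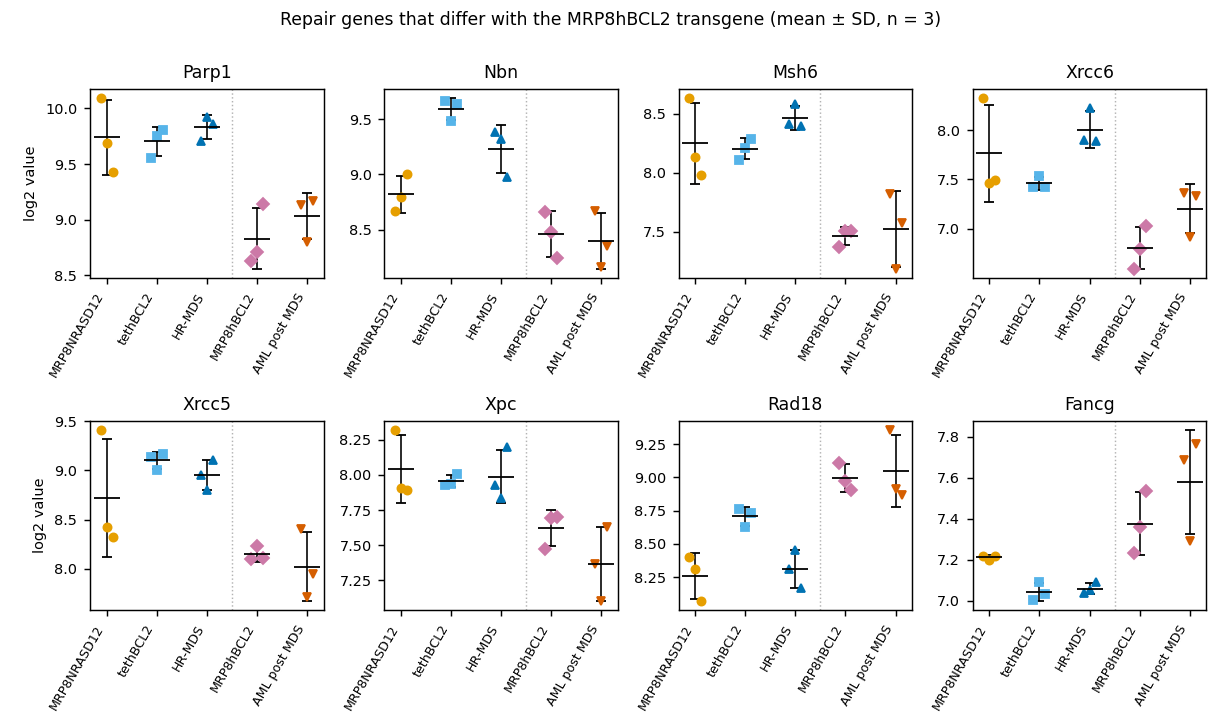
Log2 values of 8 repair genes in the 5 groups, 1 point per array, with the group mean and SD (n = 3), and a dotted line between the groups without and with MRP8hBCL2. The first 6 genes read lower on the right of the line and Rad18 and Fancg higher, with no overlap of arrays except that AML post MDS 3622 read above MRP8NRASD12 8159 in Xrcc5.

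**Figure D5:**
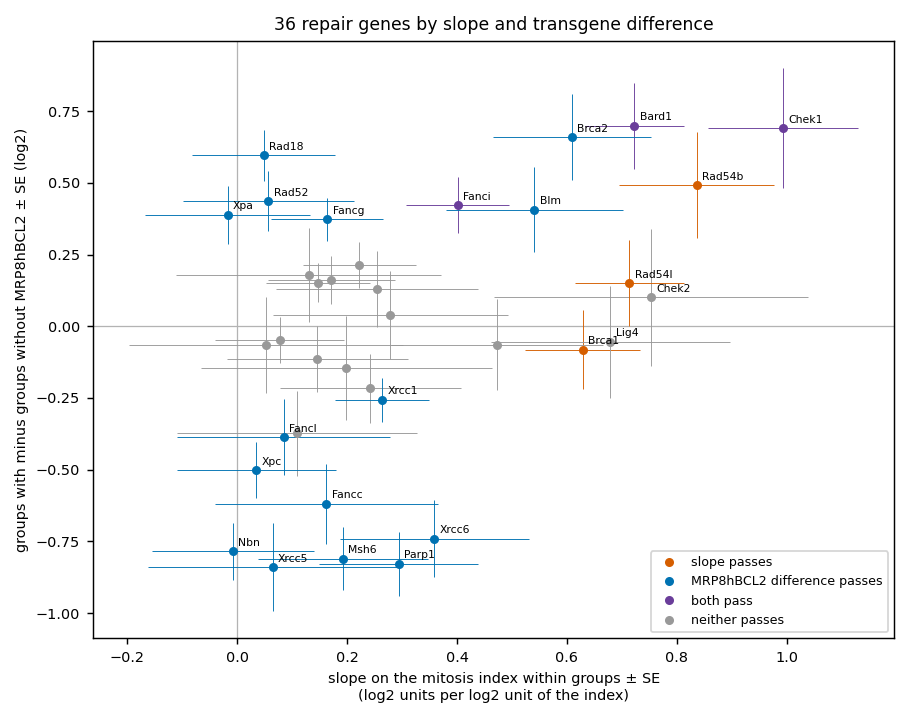
Slope on the mitosis index within groups (± SE) against the difference of groups with minus groups without MRP8hBCL2 (± SE, log2) for the 36 genes, with the genes that pass in each coloured. Chek1, Bard1 and Fanci pass in both, Rad54b, Rad54l and Brca1 in the slope alone, and Parp1, Msh6, Nbn, Xrcc5, Xrcc6, Rad18 and others in the transgene difference alone, with slopes from -0.02 to 0.61.

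Of 118 further genes of these and related pathways, listed by function, 93 had a row. They include base excision repair and translesion synthesis genes, and the replication clamp and its loader were counted under mismatch repair. None of the 93 passed in HR-MDS against tethBCL2 mice, where the 4 with the smallest p were Clspn, which helps activate Chek1 (0.95 ± 0.24), the fork protection gene Timeless (0.46 ± 0.14), the resolvase gene Gen1 (0.90 ± 0.31) and the end resection gene Dna2 (0.75 ± 0.26). In AML post MDS against MRP8hBCL2 mice 3 were higher and none lower, beside 1.29% and 0.646% of all genes, among them the flap nuclease gene Fen1 (0.70 ± 0.14; adjusted p 0.025) and the clamp loader gene Rfc5 (0.85 ± 0.18; adjusted p 0.0315). Among those that did not pass, the helicase gene Brip1, a partner of Brca1, had the smallest p (1.31 ± 0.32; adjusted p 0.0543). Within groups 4 of the 93 rose with the mitosis index, beside 1.91% of all genes, namely Dna2, Brip1, Gen1 and the clamp loader gene Rfc4. These slopes too draw on the MRP8hBCL2 group, which carried 64.7% of the sum of squares of the index. Their fit without mouse 3391 is not given here. Between AML post MDS and HR-MDS mice 16 were higher and 18 lower, beside 14.3% and 9.9% of all genes. In the contrast for MRP8hBCL2, 23 were higher and 30 lower, beside 20.9% and 15.7% of all genes, among them 9 lower and 4 higher of 15 nucleotide excision repair genes.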

How the data were processed

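RNA from Sca1+ spleen cells of 15 mice (5 groups, n = 3, 1 array per mouse) was read on exon arrays. The authors deposited log2 expression values of 23332 probe sets, made with the EASANA software and the FAST DB annotation on the mouse genome build mm9, and kept probe sets detected in a share of the arrays of a condition. The probe summarization and the array scaling, not given in the sources used here, were taken as they stand. Of the probe sets 14996 had 1 gene symbol, 1019 several and 7317 none. For 135 genes with several probe sets the one with the highest mean was taken, which left 14860 genes. Symbols were updated through Entrez identifiers to RefSeq GRCm38.p6 (14941 probe sets matched).

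Group means were fitted over all 15 arrays with limma 3.58.1 in R 4.3.3 and p-values adjusted by Benjamini-Hochberg over all genes. Group tests were contrasts of this model, an F test, and a slope on the mean of 22 mitosis genes with group means kept. The fit was tested on simulated data. Array by array values are given for up to 3 genes of each pathway with the largest F and for those the study names. The repair genes, lists and tests were chosen with earlier results of these data known. Genes that overlap another gene in the annotation (Brca2, Rad54b, Rad54l, Xrcc3, Fanca, Fancb, Fancc, Fanci, Fancl, Blm, Rad18, Msh6, Xrcc6, Prkdc, Parp1, Ercc1 and Xpc) may share probes with it. Alternatives were other scalings, filters, probe set rules, variance models, array weights, fits of only the groups compared, leaving out arrays, the index as a covariate, and the methods' t-test, run unpaired since the methods name both forms. Promoters came from RefSeq. Of the further repair genes that passed, 1 is counted and not reported here by name.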

Additional observations from a re-analysis of the deposited data

How the results depend on the processing

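These counts are of the 36 repair genes past an adjusted p of 0.05, except for the t-test without adjustment. The share of all genes called is not given here for these settings or for the fits that left out 1 array. The counts therefore cannot be read as particular to repair genes. The comparison of HR-MDS with tethBCL2 mice gave 0, but 2 when only the arrays compared were fitted, 6 with array weights and 15 by the methods' t-test without adjustment. HR-MDS against MRP8NRASD12 gave 0, and 1 by that test. AML post MDS against MRP8hBCL2 gave 2, and 5 after quantile normalization, 5 with array medians subtracted, 4 without the lowest 25% of genes, 13 with array weights, and 0 with only the arrays compared, over all probe sets, by the adjusted methods' t-test and with the mitosis index as a covariate. AML post MDS against MRP8NRASD12 gave 9, and 3 with only the arrays compared, 16 with array weights, 14 without MRP8NRASD12 8157 and HR-MDS 8398 and 0 by the adjusted t-test. AML post MDS against HR-MDS gave 15, and 6 with the index and 1 by the adjusted t-test. For tethBCL2 against MRP8NRASD12 the count of 2 became 4 after quantile normalization and with only the arrays compared, 7 with array medians subtracted, 13 with array weights, 10 by the unadjusted t-test and without the 2 arrays named above, and 0 by the adjusted t-test and with the index. For MRP8hBCL2 against MRP8NRASD12 the count of 8 became 3 with only the arrays compared, 13 with weights and 0 by the adjusted t-test. For MRP8hBCL2 against tethBCL2 the count of 7 became 11 with array medians subtracted and with only the arrays compared, 17 with weights and 12 by the unadjusted t-test. With the index as a covariate the F test called 11 in place of 20 and the contrast for MRP8hBCL2 11 in place of 18. Slopes without group means numbered 15 in place of 6. The causes were not tested.

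Leaving out 1 array at a time, the counts ran from 0 to 0 for HR-MDS against tethBCL2 and against MRP8NRASD12, from 0 to 7 for AML post MDS against MRP8hBCL2, from 7 to 15 against MRP8NRASD12 and from 11 to 17 against HR-MDS, from 1 to 10 for tethBCL2 and from 6 to 9 for MRP8hBCL2 against MRP8NRASD12, from 4 to 10 for MRP8hBCL2 against tethBCL2, from 16 to 21 for the contrast for MRP8hBCL2, from 15 to 25 for the F test and from 0 to 8 for the slopes, where MRP8hBCL2 3391 gave the 0.

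Of the differences that passed, 5 changed sign with the index as a covariate and none of the 5 passed then: Chek1 (-0.16) and Rad54b (-0.092) in AML post MDS against HR-MDS, Rad54l (0.14) in tethBCL2 against MRP8NRASD12, and Chek1 (-0.067) and Blm (-0.0066) in the contrast for MRP8hBCL2. Subtracting array medians moved the median difference of all genes from 0.04 to -0.14 in HR-MDS against tethBCL2, from -0.05 to 0.16 in tethBCL2 against MRP8NRASD12 and from 0.03 to -0.14 in MRP8hBCL2 against tethBCL2. No paired analysis was possible because no number pairs mice across groups. With 3 arrays a group and no detection values used here, small differences and signal near background were not resolved.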
